A study of Homo sapiens with 24 samples.

Results

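Untreated cells of 2 multiple myeloma lines, JJN3 and MM1.S, were compared before any drug. The comparison takes the 3 vehicle libraries of each line, 6 of the 24 libraries of the series, chosen by their labels alone. Both are established human lines grown from malignant plasma cells. The labels call MM1.S p53 wild type and JJN3 p53 null and give every sample the genotype "wild type"; no line carries an added gene or a designed deletion. The vehicle cells of both lines had been kept for 24 h with vehicle, in the same medium, and their polyadenylated RNA was read by 3′ RNA sequencing, which counts reads near the end of each transcript. The series' other libraries hold the same lines given CX-5461, panobinostat or both, in groups of 3, and enter only the last comparison. Each line is 1 culture model of 1 tumour, so differences between them describe these lines and not p53 status, which differs between them together with everything else. Whether replicates came from separate cultures is not given in the labels; p-values therefore rest on the scatter among these libraries, and that scatter may be technical. The counts of each line were deposited in a table of their own, and line and any batch of preparation cannot be told apart.

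Plasma cells are the end stage of the B cell lineage and are built for secretion. The transcription factors IRF4, PRDM1 and XBP1 hold that state, closing the B cell programme and enlarging the endoplasmic reticulum, while surface proteins such as syndecan-1 (SDC1), SLAMF7 and the BCMA receptor (TNFRSF17) mark the cells and serve as targets of myeloma antibodies and cell therapies. Each plasma cell clone makes 1 light chain, kappa or lambda, with its heavy chain. In myeloma this background is overlaid with lesions that differ from tumour to tumour: translocations that place MAF, CCND1 or NSD2 under the immunoglobulin heavy chain locus, and losses of RB1 or CDKN2C.

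Total counts were 5376306 to 6687473 per library in JJN3 and 4912481 to 6309535 in MM1.S. Levels are given in CPM, a gene's counts divided by the library's total and scaled to 1000000. They are not corrected for transcript length and are compared between lines, not between genes. The log2 fold change (log2FC) is JJN3 over MM1.S with its standard error, from edgeR's quasi-likelihood test on the 6 libraries. A gene is called when its p-value, adjusted by Benjamini-Hochberg over all genes tested, is under 0.05. Where a line has 0 counts over its 3 libraries, the fold is a lower bound against 3 counts over the line, which is 0.169 CPM in JJN3 and 0.172 CPM in MM1.S. Where it has 1 to 3 counts, the fold is the ratio of summed counts scaled to depth, given with its exact 95% counting interval. Reads carried no molecular identifiers, so bounds and intervals cover counting error only. In a principal component plot of the 6 libraries the first component, 92.9% of the variance, parted the lines, and the second, 2.65%, set JJN3 replicate 2 (-30.2) apart from replicates 1 and 3 (16.6 and 14.0). Among 4353 genes at 20 CPM or more in all 6 libraries, the median coefficient of variation within a line was 11.3% in JJN3 and 8.04% in MM1.S.

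The sharpest differences were genes on in 1 line and off in the other. 81 genes had 20 CPM or more in every JJN3 library and 1 CPM or less in every MM1.S library, and 63 genes had the reverse. These are 1.57% of the 5143 genes at 20 CPM or more in every JJN3 library and 1.2% of the 5251 in MM1.S. The line that lacked the gene had 0 counts for 30 of the 81 and 16 of the 63. Start regions are shown for 4 of the strongest, the secreted factors HGF and IL32 (on in JJN3) and the neuronal hydrolase UCHL1 and the glutaminyl cyclase QPCT (on in MM1.S), because they range from few to many CG dinucleotides, the bases at which promoters are methylated. Each sequence is the 250 bases before the RefSeq start in build GRCh38.p14, read 5′ to 3′ on the gene's strand, with every CG in capitals. The windows lie at chr7:81770048-81770297, minus strand (HGF), chr16:3065153-3065402, plus strand (IL32), chr4:41256678-41256927, plus strand (UCHL1) and chr2:37344380-37344629, plus strand (QPCT):
HGF: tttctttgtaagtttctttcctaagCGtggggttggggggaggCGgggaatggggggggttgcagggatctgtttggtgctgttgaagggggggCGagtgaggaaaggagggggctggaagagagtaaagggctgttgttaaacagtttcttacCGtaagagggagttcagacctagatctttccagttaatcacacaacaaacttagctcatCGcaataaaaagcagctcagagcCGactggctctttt
IL32: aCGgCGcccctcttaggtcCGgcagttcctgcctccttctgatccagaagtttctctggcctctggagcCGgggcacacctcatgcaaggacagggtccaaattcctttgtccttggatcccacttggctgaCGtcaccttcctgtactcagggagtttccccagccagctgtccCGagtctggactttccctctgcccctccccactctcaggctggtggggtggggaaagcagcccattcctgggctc
UCHL1: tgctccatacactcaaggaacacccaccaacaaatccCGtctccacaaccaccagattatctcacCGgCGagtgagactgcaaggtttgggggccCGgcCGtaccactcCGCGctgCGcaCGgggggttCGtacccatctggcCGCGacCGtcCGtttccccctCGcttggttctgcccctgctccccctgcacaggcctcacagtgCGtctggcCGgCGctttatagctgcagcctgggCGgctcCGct
QPCT: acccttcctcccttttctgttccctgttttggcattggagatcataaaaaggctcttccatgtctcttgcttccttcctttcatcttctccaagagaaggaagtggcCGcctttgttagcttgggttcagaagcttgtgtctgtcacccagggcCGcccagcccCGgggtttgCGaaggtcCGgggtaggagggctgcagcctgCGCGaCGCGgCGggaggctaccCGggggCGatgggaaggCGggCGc
IL32 has 2 starts in the table, of which the one with more CG is printed. CG occurs 6 times in the window of HGF, 6 times in that of IL32, 20 times in that of UCHL1 and 14 times in that of QPCT. CG (its own reverse complement) was found at least once in 93.9% of the 35116 windows of this length in the table, with a median of 11 and quartiles of 3 and 23. HGF and IL32 lie below that median, UCHL1 and QPCT above it. The whole sets did not follow these 4 windows. Over the full entries of the table, with the start richest in CG taken for each gene, 55 of the 81 genes on in JJN3 had a median of 25 CG and 36 of the 63 on in MM1.S had 21; the others had no entry. Fewer than 10 CG were found in 30.9% and 22.2% of these, against 2.56% of the entries of genes with 20 CPM or more in all 6 libraries (median 29) and 52.8% of those with 1 CPM or less in all 6 (median 8). Both sets thus lay between genes on in both lines and genes off in both, a description without a test. Methylation was not measured.

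HGF, hepatocyte growth factor and the ligand of the receptor MET, had 822, 1208 and 748 CPM in JJN3 and 0.481, 0.204 and 0 in MM1.S (log2FC 11.87 ± 0.36, edgeR adjusted p = 2.36e-12). IL32, an inflammatory cytokine, had 859, 626 and 829.6 CPM in JJN3 and 0, 0 and 0.158 in MM1.S (13494-fold by summed counts, interval 2422 to 533026, edgeR adjusted p = 2.48e-14). COL6A1, a chain of type VI collagen, stood at 779, 761 and 974 CPM in JJN3 and 0.16, 0 and 0.158 in MM1.S (7389-fold by summed counts, interval 2045 to 61018, edgeR adjusted p = 1.18e-14). All 3 were abundant in each JJN3 library and at or near 0 in each MM1.S library. On the other side, UCHL1 had 0 counts in all 3 JJN3 libraries and 480.2, 423 and 561 CPM in MM1.S, at least 2918-fold lower in JJN3 (edgeR adjusted p = 2.15e-13). QPCT showed 0.372, 0.704 and 0.449 CPM in JJN3 and 452, 441 and 419 in MM1.S (log2FC -9.68 ± 0.21, edgeR adjusted p = 1.18e-14). SEL1L3, a relative of an adaptor of ER-associated degradation, had 0, 0.176 and 0 CPM in JJN3 and 411, 414 and 388 in MM1.S (7159-fold by summed counts, interval 1285 to 282820, edgeR adjusted p = 1.75e-14). PCP4, a small calmodulin-binding protein, had 0 counts in all 3 JJN3 libraries and 286, 205 and 234 CPM in MM1.S and was at least 1445-fold lower in JJN3 (edgeR adjusted p = 1.71e-12). The low values of these 7 genes in 1 of the lines follow from the rule that chose them.

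Over the whole transcriptome 7271 of 10981 genes tested were called (66.2%), 3663 higher in JJN3 (33.4%) and 3608 lower (32.9%). Of these, 2018 (18.4%) and 1958 (17.8%) differed at least 2-fold, 36.2% of the genes tested, and 919 (8.37%) and 876 (7.98%) at least 4-fold, 16.3% together. The libraries of the lines did not overlap for 69.6% of the genes tested. The gene lists are read against these shares. The median log2 fold change over all genes tested was 0.02.

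**Figure D1:**
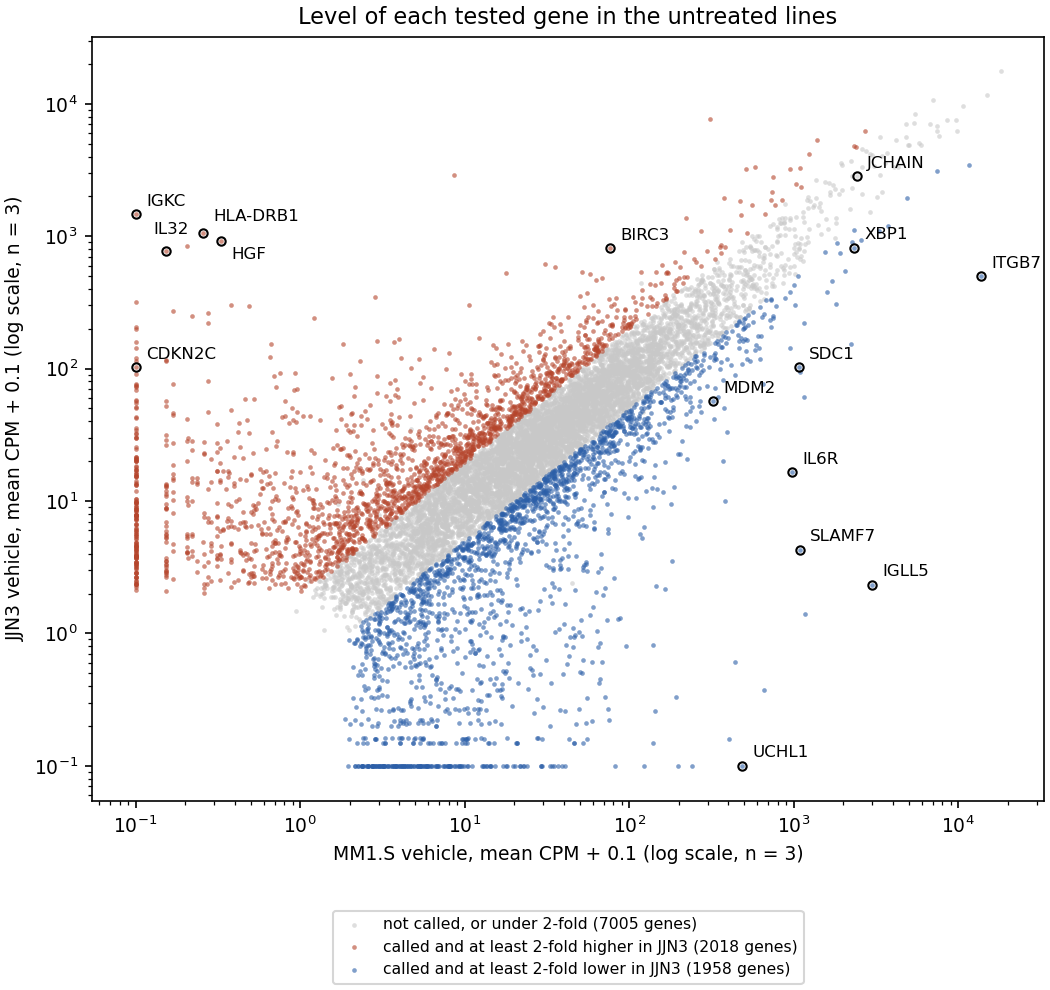
Mean CPM + 0.1 of the 3 vehicle libraries of MM1.S (horizontal, log scale) and JJN3 (vertical, log scale) for each of the 10981 genes tested; red and blue points are called and at least 2-fold higher (2018 genes) or lower (1958 genes) in JJN3, and grey points are the rest. IGKC, HGF, IL32 and HLA-DRB1 lie near the vertical axis, with almost no counts in MM1.S, UCHL1 lies on the floor of JJN3, and JCHAIN lies on the diagonal.

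Targets of p53, the tumour suppressor that answers DNA damage and by which the labels set the lines apart, went both ways. MDM2, the ubiquitin ligase that p53 induces and that degrades p53, had 50.2, 56.3 and 63.3 CPM in JJN3 and 318, 269 and 387 in MM1.S (log2FC -2.50 ± 0.14, edgeR adjusted p = 2.73e-10). CDKN1A, the p21 inhibitor of cell cycle kinases, had 20.6, 28.5 and 26.2 CPM in JJN3 and 43.6, 36.03 and 49.4 in MM1.S (log2FC -0.76 ± 0.16, edgeR adjusted p = 0.000497). Both were lower in every JJN3 library than in any MM1.S library. Of the 48 p53 targets tested, 23 were lower in JJN3 and 16 higher, with a median log2 fold change of -0.37. PERP, a desmosome and apoptosis protein, was lower (log2FC -2.89 ± 0.17, edgeR adjusted p = 4.31e-10), and so was PHLDA3, a repressor of AKT (log2FC -5.10 ± 0.42, edgeR adjusted p = 2.68e-08). Several targets went the other way. The death receptor FAS had 23.6, 27.98 and 19.7 CPM in JJN3 and 2.57, 1.42 and 2.22 in MM1.S (log2FC 3.501 ± 0.26, edgeR adjusted p = 7.7e-09). The ribonucleotide reductase subunit RRM2B (log2FC 2.09 ± 0.16, edgeR adjusted p = 1.52e-08) and cyclin G1 (CCNG1, log2FC 1.97 ± 0.17, edgeR adjusted p = 3.33e-08) were also higher in JJN3. Among 12 regulators of p53, 3 were higher in JJN3 and 6 lower. CDKN2A, whose locus encodes p16 and the MDM2 inhibitor ARF, had 61.4, 50.2 and 51.7 CPM in JJN3 and 4.97, 3.87 and 5.71 in MM1.S (log2FC 3.49 ± 0.19, edgeR adjusted p = 2e-10). The p53 relative TP63 had 2.60, 3.17 and 3.14 CPM in JJN3 and 0 counts in all 3 MM1.S libraries, at least 17.4-fold higher in JJN3 (edgeR adjusted p = 4.29e-06). HIPK2, a kinase of p53, was lower (log2FC -1.01 ± 0.11, edgeR adjusted p = 1.09e-06).

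Light chain transcripts differed between the lines. IGKC, the constant region of kappa, had 1269, 1604 and 1541 CPM in JJN3 and 0 counts in all 3 MM1.S libraries, at least 8603-fold higher in JJN3 (edgeR adjusted p = 3.92e-14). IGLL5, a gene that overlaps the lambda constant locus, had 1.67, 1.58 and 3.44 CPM in JJN3 and 2703, 3307 and 2955 in MM1.S (log2FC -10.32 ± 0.23, edgeR adjusted p = 1.18e-14). The other lambda constant genes lay in the same direction. IGLC2 had 0, 0 and 0.449 CPM in JJN3 and 13.3, 10.99 and 11.6 in MM1.S (71.2-fold by summed counts, interval 24.02 to 348, edgeR adjusted p = 2.84e-08). IGLC3 and IGLC7 were at least 28.5-fold and at least 33.2-fold lower in JJN3 (edgeR adjusted p = 6.1e-07 and 4.11e-07). IGLC5, annotated as a pseudogene of that cluster, had 0.372, 0 and 0.449 CPM in JJN3 and 733, 599.7 and 648 in MM1.S (log2FC -11.08 ± 0.27, edgeR adjusted p = 2.48e-14). These copies are near-identical, and how reads that fit several were handled is not known here, so the split of counts among the lambda genes is uncertain. In every library kappa counts marked JJN3 and lambda counts MM1.S. Counts of heavy chain genes were at or near 0 in both lines: IGHA1 and IGHM had 0 counts in all 6 libraries. How reads that fit several genes were handled is not known for these either, and low counts are not read as absent transcripts. The heavy chain gene IGHG3 had 2.42, 3.87 and 5.98 CPM in JJN3 and 0, 0.204 and 0.158 in MM1.S (36.9-fold by summed counts, interval 9.86 to 310.2, edgeR adjusted p = 5.25e-06). JCHAIN, the joining chain of secreted IgA and IgM, was at 3035, 3341 and 2177 CPM in JJN3 and 2605, 2531 and 2125 in MM1.S, overlapping between the lines (log2FC 0.26 ± 0.16, edgeR adjusted p = 0.16). Without JJN3 replicate 3 it was called (edgeR adjusted p = 0.0134).

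Most plasma cell identity genes were lower in JJN3. Of 21 plasma cell identity genes tested, 16 were lower in JJN3 and 2 higher (median log2 fold change -1.10, against 0.02 over all genes). In bulk RNA, fewer cells of a type and less RNA per cell cannot be told apart. SLAMF7, a surface receptor targeted by elotuzumab, had 4.09, 3.70 and 4.79 CPM in JJN3 and 1148, 1048 and 1061 in MM1.S (log2FC -7.99 ± 0.17, edgeR adjusted p = 1.18e-14). SDC1, syndecan-1 or CD138, had 94.3, 98.02 and 114 CPM in JJN3 and 1043, 1095 and 1081 in MM1.S (log2FC -3.38 ± 0.12, edgeR adjusted p = 2.08e-12). TNFRSF17, BCMA, had 106, 65.1 and 98.4 CPM in JJN3 and 481, 440.1 and 405 in MM1.S (log2FC -2.28 ± 0.17, edgeR adjusted p = 8.32e-09). Every JJN3 library lay below the lowest MM1.S library for these 3 markers. The related receptor TNFRSF13B, TACI, was lower as well (log2FC -2.68 ± 0.14, edgeR adjusted p = 1.36e-10). The transcription factors that hold the state were also lower. PRDM1, which shuts the B cell programme, had 43.7, 42.6 and 49.9 CPM in JJN3 and 209, 212 and 245 in MM1.S (log2FC -2.27 ± 0.12, edgeR adjusted p = 1.72e-10). XBP1, which builds the secretory apparatus, had 828, 823 and 814 CPM in JJN3 and 2388, 2169 and 2439.6 in MM1.S (log2FC -1.48 ± 0.11, edgeR adjusted p = 1.18e-08). IRF4, on which myeloma cells depend, had 177, 177 and 255 CPM in JJN3 and 264, 291 and 282 in MM1.S (log2FC -0.44 ± 0.13, edgeR adjusted p = 0.0086). The elongation factor ELL2, which favours the secreted form of heavy chain transcripts, was higher in JJN3 (log2FC 2.71 ± 0.15, edgeR adjusted p = 2.52e-10), as was the lymphoid factor IKZF3 (log2FC 0.86 ± 0.11, edgeR adjusted p = 4.43e-06). CD38, the antigen of daratumumab, was scarce in both lines, at 0.186, 0 and 0 CPM in JJN3 and 5.78, 3.87 and 5.07 in MM1.S (88.5-fold by summed counts, interval 15.5 to 3533, edgeR adjusted p = 6.23e-07). The plasma cell markers SDC1, TNFRSF17, XBP1, IRF4, PRDM1, MZB1, JCHAIN and SLAMF7 had counts in every library of both lines. The marker CD38 had 0 counts in JJN3 replicates 2 and 3, and CD27 and DERL3 of the same list had 0 counts in all 6 libraries.

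**Figure D2:**
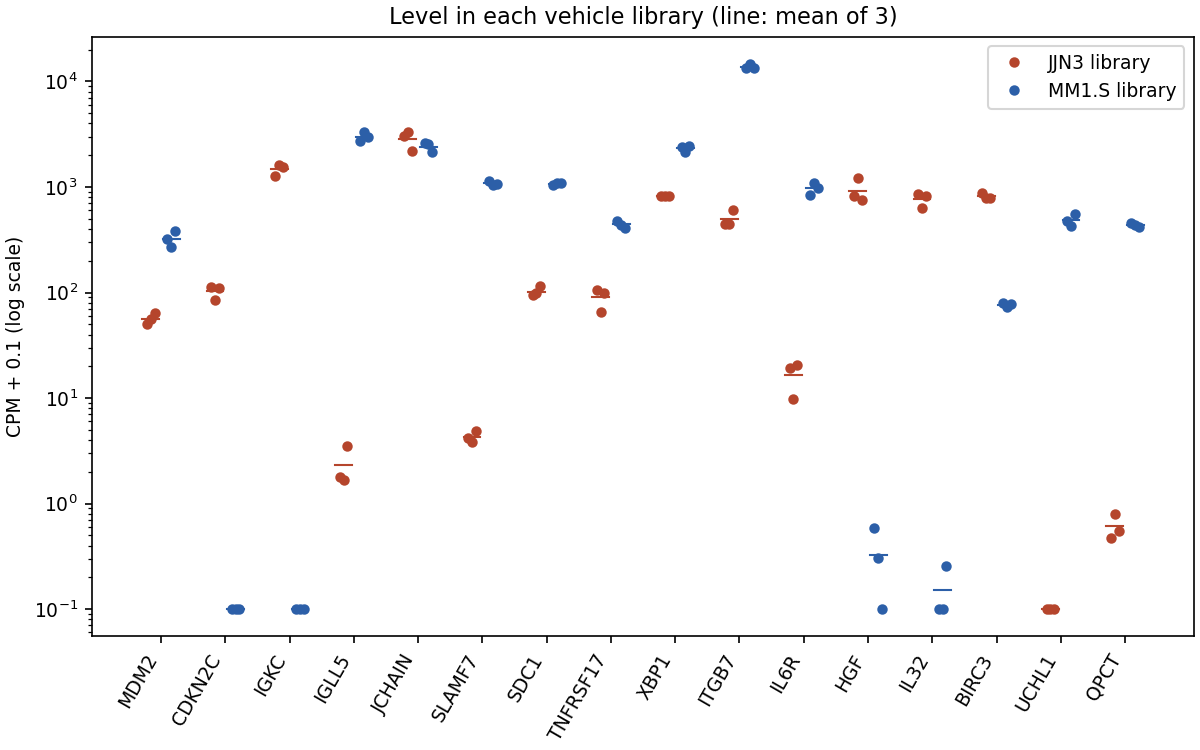
CPM + 0.1 on a log scale of 16 genes in each of the 3 JJN3 (red) and 3 MM1.S (blue) vehicle libraries, with a line at each mean; points at 0.1 have 0 counts. Except for JCHAIN, the libraries of the lines do not overlap for any gene drawn.

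Surface antigens as a class were lower in JJN3. Of 27 tested, 19 were lower and 6 higher, with a median log2 fold change of -2.53. ITGB7, the integrin beta-7 chain that pairs with alpha-4 for homing to bone marrow and gut, had 448, 444 and 602 CPM in JJN3 and 13395, 14647 and 13286 in MM1.S (log2FC -4.77 ± 0.15, edgeR adjusted p = 3.69e-13). GPRC5D, the antigen of talquetamab, had 1.12, 0.176 and 2.84 CPM in JJN3 and 25.3, 29.5 and 19.02 in MM1.S (log2FC -4.05 ± 0.42, edgeR adjusted p = 2.06e-06). The Fc receptor-like antigen FCRL5 overlapped, at 2.23, 1.58 and 2.84 CPM in JJN3 and 1.12, 2.04 and 1.90 in MM1.S (log2FC 0.44 ± 0.39, edgeR adjusted p = 0.33). The semaphorin SEMA4A had 1.86, 2.29 and 2.09 CPM in JJN3 and 146, 184 and 163 in MM1.S (log2FC -6.27 ± 0.19, edgeR adjusted p = 1.94e-13). CD40, the receptor of T cell help, had 0 counts in all 3 JJN3 libraries and 38.8, 37.7 and 41.2 CPM in MM1.S, at least 233-fold lower in JJN3 (edgeR adjusted p = 6.04e-11). Antigens higher in JJN3 were fewer. The stem cell factor receptor KIT had 20.3, 13.7 and 13.5 CPM in JJN3 and 0 counts in all 3 MM1.S libraries, at least 90.8-fold higher (edgeR adjusted p = 1.41e-08). CD74, the invariant chain of MHC class II, had 777, 844 and 847 CPM in JJN3 and 373, 399 and 292 in MM1.S (log2FC 1.23 ± 0.13, edgeR adjusted p = 7.39e-07). The complement regulator CD55 was higher too (log2FC 2.13 ± 0.26, edgeR adjusted p = 2.45e-06).

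Of 27 adhesion and homing genes tested, 17 were lower in JJN3 and 6 higher (median log2 fold change -0.82). The gene lists can share members, so this count is not separate from that of the surface antigens. CD9, a tetraspanin, had 0.744, 1.23 and 1.94 CPM in JJN3 and 1239.8, 1005 and 1266 in MM1.S (log2FC -9.72 ± 0.22, edgeR adjusted p = 1.67e-14). SELPLG, the P-selectin ligand, had 96.2, 78.7 and 105 CPM in JJN3 and 1191, 1049 and 1052 in MM1.S (log2FC -3.54 ± 0.14, edgeR adjusted p = 6.64e-12). CD44, the hyaluronan receptor, was lower in JJN3 (log2FC -0.82 ± 0.16, edgeR adjusted p = 0.000289). NCAM1, CD56, had 0, 0.528 and 0.299 CPM in JJN3 and 10.6, 12.2 and 10.1 in MM1.S (log2FC -5.17 ± 0.44, edgeR adjusted p = 3.7e-08). Some went the other way without overlap. ITGB2, the chain shared by the leukocyte integrins, had 236, 339 and 326 CPM in JJN3 and 0, 0.204 and 0.634 in MM1.S (log2FC 9.95 ± 0.31, edgeR adjusted p = 3.3e-13). CXCR4, the chemokine receptor that holds plasma cells in the marrow, had 171, 127 and 121 CPM in JJN3 and 53.1, 53.7 and 61.7 in MM1.S (log2FC 1.34 ± 0.15, edgeR adjusted p = 1.24e-06). The chemokine receptor CCR2 had 140.2, 114 and 180 CPM in JJN3 and 63.9, 66.8 and 56.6 in MM1.S (log2FC 1.23 ± 0.15, edgeR adjusted p = 3.32e-06).

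The secretory pathway was lower in JJN3 to a modest degree. Of 46 ER chaperone and secretion genes tested, 30 were lower and 7 higher (median log2 fold change -0.65). SEC11C, a catalytic chain of signal peptidase, had 337, 300.4 and 291 CPM in JJN3 and 1929, 1678 and 1799.8 in MM1.S (log2FC -2.52 ± 0.13, edgeR adjusted p = 1.03e-10). EIF2AK3, the ER stress kinase PERK, had 12.8, 21.1 and 13.9 CPM in JJN3 and 78.8, 102 and 99.5 in MM1.S (log2FC -2.53 ± 0.18, edgeR adjusted p = 4.21e-09). The lectin chaperone CANX was among the few higher in JJN3 (log2FC 0.59 ± 0.12, edgeR adjusted p = 0.000365). The count of members higher fell to 4, 4 and 3 without MM1.S replicate 1, 2 or 3. Of 35 genes of the proteasome, the target of bortezomib, 6 were higher in JJN3 and 9 lower (42.9% called, at a median of -0.04). PSMD2, a base subunit of the regulatory particle, was lower (log2FC -1.34 ± 0.13, edgeR adjusted p = 2.38e-07) and the core subunit PSMA5 higher (log2FC 1.09 ± 0.17, edgeR adjusted p = 3.53e-05). The count of members higher was 3 without JJN3 replicate 1, MM1.S replicate 2 or MM1.S replicate 3.

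MAF family members differed between the lines. MAF, the c-MAF factor, was expressed in both lines, with 402, 623 and 362 CPM in JJN3 and 267, 286 and 294 in MM1.S (log2FC 0.73 ± 0.17, edgeR adjusted p = 0.0013). MAFA, its close relative, had 68.4, 48.04 and 48.4 CPM in JJN3 and 0 counts in all 3 MM1.S libraries, at least 316-fold higher in JJN3 (edgeR adjusted p = 1.63e-10). CCND2, a D cyclin and known MAF target, had 589, 742 and 800.5 CPM in JJN3 and 1057, 1150.3 and 1134 in MM1.S (log2FC -0.63 ± 0.12, edgeR adjusted p = 0.000241). CCND1 stayed under 3 CPM in every library. NSD2, the methyltransferase of the t(4;14) translocation, overlapped at 210.2, 192 and 269 CPM in JJN3 and 202, 228 and 251 in MM1.S (log2FC -0.0031 ± 0.13, edgeR adjusted p = 0.99). MYC had 90.6, 187 and 105 CPM in JJN3 and 34.7, 33.6 and 51.4 in MM1.S (log2FC 1.69 ± 0.27, edgeR adjusted p = 0.000439), higher in every JJN3 library, JJN3 replicate 2 above the others. The genes tied to MAF in myeloma went both ways: 4 of 11 were higher in JJN3 and 6 lower. Beside ITGB7, the mTOR inhibitor DEPTOR was lower, with 74.6, 110 and 59.5 CPM in JJN3 and 364, 369 and 377 in MM1.S (log2FC -2.17 ± 0.18, edgeR adjusted p = 6.7e-08). RND3, an atypical small GTPase, was higher, with 43.9, 56.3 and 38.9 CPM in JJN3 and 6.42, 7.12 and 9.67 in MM1.S (log2FC 2.60 ± 0.20, edgeR adjusted p = 1.1e-08). CTLA4, the immune checkpoint receptor, had 8.18, 14.4 and 11.2 CPM in JJN3 and 0.16, 0 and 0 in MM1.S (198-fold by summed counts, interval 35.1 to 7847, edgeR adjusted p = 1.52e-08).

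Among the tumour suppressors of myeloma, 10 of 24 tested were higher in JJN3 and 6 lower. CDKN2C, the p18 inhibitor of CDK4 and CDK6, had 113, 84.1 and 111 CPM in JJN3 and 0 counts in all 3 MM1.S libraries, at least 600-fold higher in JJN3 (edgeR adjusted p = 9.51e-12). FAF1, the tested gene next to it in the genome, had 60.1, 47.5 and 62.1 CPM in JJN3 and 0.802, 1.02 and 0.317 in MM1.S (log2FC 6.34 ± 0.28, edgeR adjusted p = 1.37e-11). FAF1 was the only 1 of the 12 tested genes around CDKN2C (6 on each side in RefSeq order) that was called at least 4-fold higher in JJN3. RNF11, on the other side, was not called (log2FC 0.29 ± 0.15, edgeR adjusted p = 0.096), and RAB3B, a vesicle GTPase 5 genes away, was lower in JJN3 (log2FC -7.49 ± 0.31, edgeR adjusted p = 8.63e-12). The retinoblastoma gene RB1 was higher in JJN3, with 76.1, 70.9 and 61.9 CPM in JJN3 and 19.4, 15.1 and 22.8 in MM1.S (log2FC 1.88 ± 0.16, edgeR adjusted p = 5.35e-08). WWOX, at the site where MAF translocations break, overlapped at 7.07, 3.52 and 6.73 CPM in JJN3 and 3.37, 6.11 and 4.91 in MM1.S (log2FC 0.31 ± 0.31, edgeR adjusted p = 0.41). The demethylase KDM6A was not called (log2FC -0.49 ± 0.23, edgeR adjusted p = 0.073). Over the list of cell cycle inhibitors and D cyclins, 7 of 15 were higher in JJN3 and 5 lower.

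NF-kB genes were mixed. BIRC3, cIAP2, which is both an NF-kB target and a brake on the non-canonical pathway, had 869, 791 and 791 CPM in JJN3 and 78.6, 73.5 and 78.1 in MM1.S (log2FC 3.43 ± 0.13, edgeR adjusted p = 2.43e-12). In the non-canonical pathway itself 4 of 12 were higher in JJN3 and 4 lower. Its kinase MAP3K14, NIK, had 17.7, 24.99 and 27.8 CPM in JJN3 and 16.8, 10.6 and 13.3 in MM1.S (log2FC 0.80 ± 0.21, edgeR adjusted p = 0.0029). TRAF3, which marks NIK for degradation, had 52.5, 58.1 and 58.8 CPM in JJN3 and 38.99, 36.2 and 41.8 in MM1.S (log2FC 0.55 ± 0.13, edgeR adjusted p = 0.0012). Of 20 NF-kB targets, 10 were higher and 6 lower (median 0.45). The cytokine receptor chain IL2RG was higher (log2FC 1.42 ± 0.13, edgeR adjusted p = 7.42e-08), the signalling ligand WNT10A lower (log2FC -2.21 ± 0.23, edgeR adjusted p = 3.03e-06). NFKB2, the precursor of p52, was low in both lines at 7.07, 6.51 and 11.8 CPM in JJN3 and 4.81, 5.09 and 5.71 in MM1.S (log2FC 0.73 ± 0.27, edgeR adjusted p = 0.024). The NFKB2 call was lost with DESeq2 (adjusted p = 0.079) and in edgeR without JJN3 replicate 3 (adjusted p = 0.188) or MM1.S replicate 1, 2 or 3 (adjusted p = 0.0794, 0.0687 and 0.0549).

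The balance of BCL2 family members differed. BCL2, the target of venetoclax, had 153, 155 and 150.1 CPM in JJN3 and 62.4, 70.03 and 63.4 in MM1.S (log2FC 1.25 ± 0.12, edgeR adjusted p = 1.41e-07). BCL2L1, BCL-XL, had 2.79, 3.52 and 2.84 CPM in JJN3 and 30.8, 32.8 and 33.6 in MM1.S (log2FC -3.38 ± 0.20, edgeR adjusted p = 5.56e-10). MCL1, on which most myeloma cells depend, was slightly higher in JJN3, with 680, 920.2 and 749 CPM in JJN3 and 578, 581 and 559 in MM1.S (log2FC 0.47 ± 0.12, edgeR adjusted p = 0.0035). Thus JJN3 had more BCL2 and less BCL2L1 transcript in every library. Among pro-apoptotic members BBC3, PUMA, had 329, 423 and 254 CPM in JJN3 and 63.7, 87.5 and 74.8 in MM1.S (log2FC 2.18 ± 0.18, edgeR adjusted p = 6.59e-08). PMAIP1, NOXA, had 27.3, 37.1 and 31.9 CPM in JJN3 and 4.65, 8.35 and 2.38 in MM1.S (log2FC 2.70 ± 0.30, edgeR adjusted p = 1.95e-06). Both are known p53 targets, and both were higher in the line labelled p53 null. BAX, a pore-forming member, was lower (log2FC -0.77 ± 0.31, edgeR adjusted p = 0.039). The BAX call was lost with DESeq2 (adjusted p = 0.0975), with limma-voom (adjusted p = 0.0573) and in edgeR without JJN3 replicate 3 or MM1.S replicate 2 (adjusted p = 0.142 and 0.201). The apoptosis inhibitor CFLAR was lower in JJN3 (log2FC -0.95 ± 0.13, edgeR adjusted p = 1e-05).

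**Figure D3:**
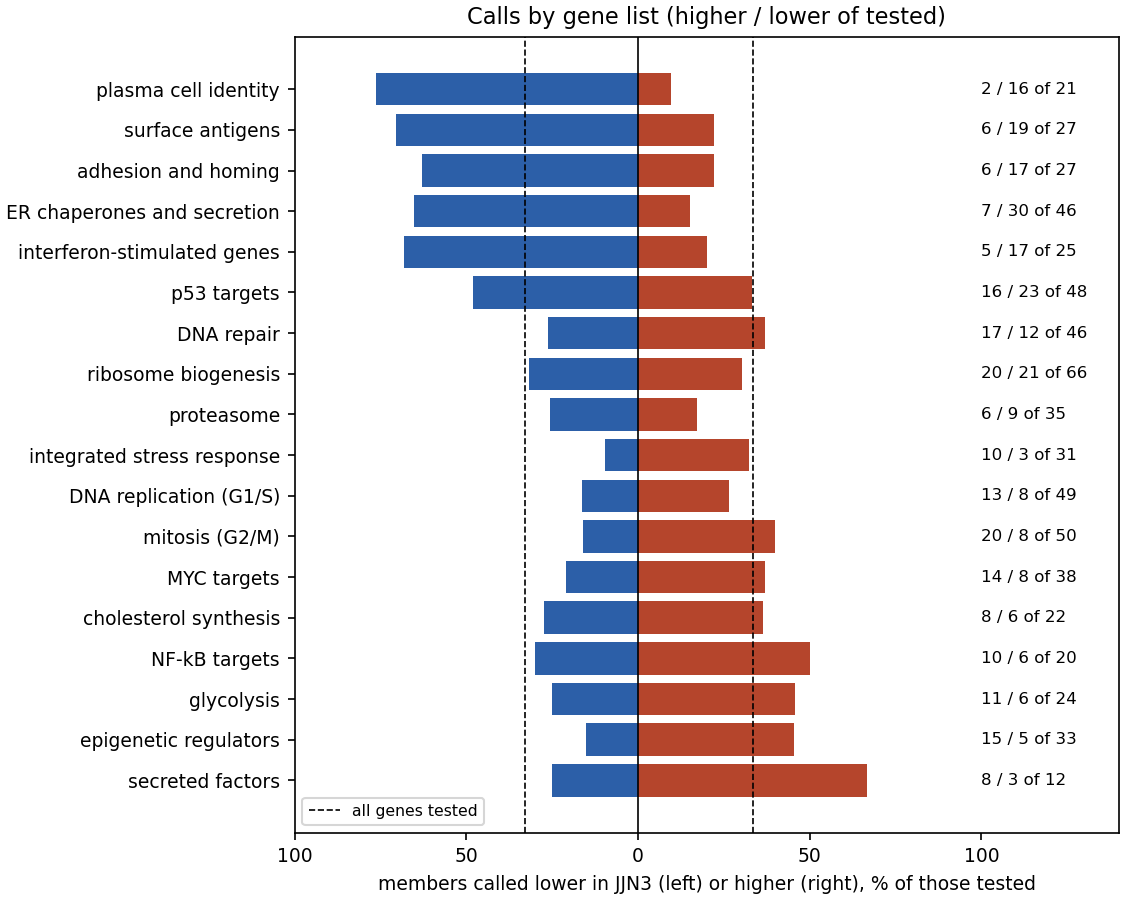
Share of tested members of 18 gene lists called lower (blue, left) or higher (red, right) in JJN3, in percent of the members tested, with the counts at the right; dashed lines mark the shares over all genes tested, 32.9% lower and 33.4% higher. Plasma cell identity, surface antigens, adhesion, ER and interferon lists extend to the left, and proteasome, integrated stress response and DNA replication lists hold fewer calls than the transcriptome.

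Receptors and secreted factors split. IL6R, the receptor of interleukin-6, the main growth factor of myeloma cells, had 19.3, 9.68 and 20.5 CPM in JJN3 and 848, 1094 and 975 in MM1.S (log2FC -5.85 ± 0.24, edgeR adjusted p = 1.18e-10). The interleukin-21 receptor IL21R was lower as well (log2FC -4.11 ± 0.22, edgeR adjusted p = 1.36e-10). FGFR1, a fibroblast growth factor receptor, had 36.6, 39.6 and 36.6 CPM in JJN3 and 1.93, 1.22 and 2.22 in MM1.S (log2FC 4.37 ± 0.22, edgeR adjusted p = 9.86e-11). Among 22 receptors and their signal transducers tested, 8 were higher in JJN3 and 8 lower. Of 12 secreted factors tested, out of 27 in the list, 8 were higher in JJN3 and 3 lower. The shares over all genes tested were 33.4% and 32.9%. A member that passed the filter on low counts through 1 line alone, as HGF and IL32 did through JJN3, had to differ. Beside HGF and IL32, TGFB1, transforming growth factor beta, was higher at 12.8, 7.92 and 11.4 CPM in JJN3 and 0.963, 0.611 and 0.792 in MM1.S (log2FC 3.73 ± 0.35, edgeR adjusted p = 1.3e-07). IL16, a chemoattractant of CD4+ cells, was lower at 10.6, 4.75 and 12.9 CPM in JJN3 and 176, 188 and 173 in MM1.S (log2FC -4.22 ± 0.23, edgeR adjusted p = 2.8e-09). The chemokine CCL3, which promotes bone resorption, had 0, 3.17 and 0 CPM in JJN3 and 19.7, 23.2 and 14.6 in MM1.S (log2FC -4.18 ± 0.86, edgeR adjusted p = 0.0057). JJN3 replicate 2 alone held its JJN3 counts, and DESeq2 did not call CCL3 (adjusted p = 0.0714).

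Most interferon-stimulated genes were lower in JJN3. STAT2, a factor that carries the interferon signal, had 11.9, 16.01 and 18.8 CPM in JJN3 and 63.7, 63.7 and 62.8 in MM1.S (edgeR adjusted p = 1.51e-08). Of 25 interferon-stimulated genes tested, 17 were lower and 5 higher, with a median log2 fold change of -0.92. The nuclease ISG20 had 13.2, 9.50 and 14.1 CPM in JJN3 and 147, 182 and 116 in MM1.S (log2FC -3.58 ± 0.20, edgeR adjusted p = 2.28e-10). The antiviral GTPase MX1 had 0.186, 0 and 0 CPM in JJN3 and 9.14, 10.6 and 11.3 in MM1.S (183-fold by summed counts, interval 32.4 to 7268, edgeR adjusted p = 1.04e-08). The membrane proteins IFITM1 and IFITM2 went the other way. IFITM1 had 38.5, 42.4 and 35.1 CPM in JJN3 and 0, 0.814 and 0.158 in MM1.S (log2FC 6.99 ± 0.38, edgeR adjusted p = 1.95e-10). IFITM2 had 22.7, 17.8 and 23.03 CPM in JJN3 and 0.321, 0.407 and 0.317 in MM1.S (log2FC 5.88 ± 0.33, edgeR adjusted p = 2.98e-10). NLRC5, the activator of MHC class I genes, was higher in JJN3 (log2FC 3.59 ± 0.24, edgeR adjusted p = 2.89e-09).

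Counts of MHC genes differed widely and have a limit of their own. HLA-DRB1, a class II beta chain, had 1069, 1006 and 1098 CPM in JJN3 and 0, 0 and 0.475 in MM1.S (6165-fold by summed counts, interval 2109 to 29897, edgeR adjusted p = 2.27e-14). HLA-DQB1 had 310.1, 319 and 334 CPM in JJN3 and 0 counts in all 3 MM1.S libraries, at least 1873-fold higher in JJN3 (edgeR adjusted p = 1.42e-13). HLA-DQA1 was at least 1189.8-fold higher and HLA-DRB5 at least 933-fold higher. Of the 13 class II genes only 7 passed the filter on low counts, all 7 higher in JJN3, beside 33.4% over all genes tested. A member off in both lines could not pass. Members at or near 0 counts in MM1.S, such as HLA-DRB1, HLA-DRB5, HLA-DQA1 and HLA-DQB1, passed through JJN3 alone and had to be higher. HLA-DRA, the alpha chain that pairs with the DR beta chains, had 1.12, 0.704 and 0.15 CPM in JJN3 and 0 counts in all 3 MM1.S libraries. CIITA, the activator of class II genes, had 5.58, 5.28 and 8.97 CPM in JJN3 and 3.69, 3.87 and 2.54 in MM1.S (log2FC 1.01 ± 0.30, edgeR adjusted p = 0.0075). Its call was lost without JJN3 replicate 3 or MM1.S replicate 3 (edgeR adjusted p = 0.0625 and 0.0565). HLA-B, a class I heavy chain, had 13.6, 66.5 and 19.6 CPM in JJN3 and 1.76, 2.04 and 1.90 in MM1.S (log2FC 4.13 ± 0.89, edgeR adjusted p = 0.011), and its call was lost without MM1.S replicate 1 or 3 (edgeR adjusted p = 0.0509 and 0.0532). BRD2, a chromatin reader in use in most cells whose gene lies in the class II region, had 0.744, 3.52 and 0.897 CPM in JJN3 and 0.16, 0.204 and 0.475 in MM1.S and is named here after its values were seen. How reads in this region were counted is not known here and its part in these values was not tested. Low counts there are not read as low expression. B2M, the light chain of class I, lies elsewhere and varied within each line, at 239.6, 1345 and 2621 CPM in JJN3 and 568, 1119 and 1424 in MM1.S, without a call (log2FC 0.43 ± 0.93, edgeR adjusted p = 0.71).

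MAPK feedback genes, which ERK signalling switches on, went both ways. DUSP5, a phosphatase that switches off ERK, had 28.6, 30.97 and 39.6 CPM in JJN3 and 375, 419 and 393 in MM1.S (log2FC -3.56 ± 0.14, edgeR adjusted p = 4.31e-12). DUSP4, another such phosphatase, had 11.5, 9.68 and 13.3 CPM in JJN3 and 144, 171 and 164 in MM1.S (log2FC -3.77 ± 0.15, edgeR adjusted p = 6.19e-12). ETV5, an ETS factor downstream of ERK, was lower at 0.186, 0.352 and 1.05 CPM in JJN3 and 27.6, 37.7 and 27.9 in MM1.S (log2FC -5.72 ± 0.34, edgeR adjusted p = 5.61e-10). Its relative ETV1 was higher, at 10.2, 11.4 and 14.95 CPM in JJN3 and 0.16, 0.204 and 0.158 in MM1.S (72.1-fold by summed counts, interval 24.4 to 352, edgeR adjusted p = 3.32e-09). EGR1, an early growth response factor, was higher at 32.9, 30.8 and 20.6 CPM in JJN3 and 0.16, 0.611 and 0 in MM1.S (log2FC 6.83 ± 0.45, edgeR adjusted p = 1.95e-09). Of 11 tested, 6 were lower in JJN3 and 3 higher. Of 13 immediate early genes 6 were higher and 5 lower. IER2 had 269.5, 290.2 and 349 CPM in JJN3 and 11.4, 10.4 and 9.67 in MM1.S (log2FC 4.87 ± 0.15, edgeR adjusted p = 3.3e-13). JUNB, an AP-1 subunit, was higher as well (log2FC 2.34 ± 0.20, edgeR adjusted p = 4.24e-08), and the factor KLF6 was lower (log2FC -0.92 ± 0.17, edgeR adjusted p = 0.00026).

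Targets of the drugs of the series were compared next. CX-5461 blocks RNA polymerase I, and of the 18 genes tested for that machinery 5 were higher in JJN3 and 6 lower. POLR1A, its large subunit, had 4.46, 5.81 and 6.13 CPM in JJN3 and 8.82, 9.77 and 11.1 in MM1.S (log2FC -0.83 ± 0.23, edgeR adjusted p = 0.0044). Without MM1.S replicate 3 the lower count was 3. RRN3, which recruits the polymerase, had under 1 CPM in every library. This is not read as absence, since the handling of reads with several matches is not given. CX-5461 also acts at topoisomerase II, of which TOP2A had 1122, 1287 and 1364 CPM in JJN3 and 789, 843 and 832 in MM1.S (log2FC 0.63 ± 0.11, edgeR adjusted p = 0.000122). TOP2B was higher by a small margin (log2FC 0.26 ± 0.11, edgeR adjusted p = 0.047), a call lost under 12 of 15 other settings (smallest adjusted p among them 0.0504, largest 0.168). TOP1 was not called (log2FC -0.19 ± 0.11, edgeR adjusted p = 0.15). Of 9 histone deacetylases, the targets of panobinostat, 2 were higher in JJN3 and 4 lower. HDAC8 had 24.2, 17.95 and 22.6 CPM in JJN3 and 55.5, 50.3 and 51.7 in MM1.S (log2FC -1.26 ± 0.15, edgeR adjusted p = 2.42e-06). HDAC3, of the nuclear corepressor complexes, had 156, 135 and 170 CPM in JJN3 and 204, 203 and 210.2 in MM1.S (log2FC -0.40 ± 0.12, edgeR adjusted p = 0.0071). HDAC1 differed little (log2FC 0.28 ± 0.12, edgeR adjusted p = 0.047), and its call was lost under 12 of 15 other settings (adjusted p = 0.0517 to 0.171 in these). HDAC2 and HDAC6 were not called (edgeR adjusted p = 0.2 and 0.72), although HDAC2 was without JJN3 replicate 3 (edgeR adjusted p = 0.0476). SLFN11, a helicase that sensitises cells to DNA damaging drugs, had 0 counts in all 3 JJN3 libraries and 20.1, 20.4 and 24.4 CPM in MM1.S, at least 128-fold lower in JJN3 (edgeR adjusted p = 8.98e-10).

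The glucocorticoid receptor NR3C1 had 307, 344 and 252 CPM in JJN3 and 149, 173 and 175 in MM1.S (log2FC 0.89 ± 0.13, edgeR adjusted p = 2.56e-05). MM1.S is the line named for its sensitivity to glucocorticoids. Of 9 glucocorticoid response genes, NR3C1 among them, 6 were higher in JJN3 and 1 lower. PER1, a clock gene and receptor target, had 148, 191 and 169 CPM in JJN3 and 29.4, 31.3 and 37.9 in MM1.S (log2FC 2.38 ± 0.14, edgeR adjusted p = 3.4e-10). FKBP5, a chaperone of the receptor, had 94.9, 108 and 98.99 CPM in JJN3 and 35.1, 34.6 and 42.5 in MM1.S (log2FC 1.45 ± 0.13, edgeR adjusted p = 6.6e-08). Of the cereblon pathway, through which lenalidomide acts, 7 of 15 were higher and 4 lower. CRBN itself had 17.5, 16.7 and 13.9 CPM in JJN3 and 7.22, 13.6 and 9.19 in MM1.S (log2FC 0.71 ± 0.23, edgeR adjusted p = 0.014). Its call was lost without JJN3 replicate 1, MM1.S replicate 1 or MM1.S replicate 3 (edgeR adjusted p = 0.0524, 0.0889 and 0.0695). Its substrate IKZF1 was lower in JJN3, at 69.6, 43.5 and 72.8 CPM in JJN3 and 129, 122 and 136 in MM1.S (log2FC -1.04 ± 0.16, edgeR adjusted p = 3.8e-05), while the substrate IKZF3 was higher. GSTP1, a glutathione transferase that detoxifies alkylating agents, had 149, 108 and 202 CPM in JJN3 and 2067, 2308 and 2313 in MM1.S (log2FC -3.85 ± 0.19, edgeR adjusted p = 1.37e-10). The efflux pump ABCB1 had 0 counts in all JJN3 libraries and at most 0.16 CPM in MM1.S.

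Glycolysis genes were higher in JJN3 for 11 of 24 tested and lower for 6 (median log2 fold change 0.66), and isozymes of 1 reaction could differ in direction. PFKP, the platelet phosphofructokinase, had 113, 92.9 and 134 CPM in JJN3 and 0 counts in all 3 MM1.S libraries, at least 665-fold higher in JJN3 (edgeR adjusted p = 8.24e-12). Aldolase A (ALDOA) had 1896, 1743 and 1884 CPM in JJN3 and 447, 501 and 461 in MM1.S (log2FC 1.99 ± 0.12, edgeR adjusted p = 5.74e-10). Aldolase C (ALDOC) had 154, 152 and 156 CPM in JJN3 and 17.01, 23.6 and 13.8 in MM1.S (log2FC 3.12 ± 0.17, edgeR adjusted p = 2.09e-10). Enolase 1 (ENO1) was higher at 2947, 2337 and 3071 CPM in JJN3 and 844, 670.1 and 727 in MM1.S (log2FC 1.92 ± 0.14, edgeR adjusted p = 6.93e-09). Enolase 2 (ENO2) was lower at 22.1, 30.4 and 30.4 CPM in JJN3 and 167, 126 and 138 in MM1.S (log2FC -2.36 ± 0.15, edgeR adjusted p = 1.49e-09). PDK1, the kinase that shuts pyruvate out of the mitochondria, was also lower (log2FC -2.14 ± 0.14, edgeR adjusted p = 1.58e-09). Cholesterol synthesis split as well, with 8 of 22 higher and 6 lower. Squalene epoxidase (SQLE) had 112, 149 and 126 CPM in JJN3 and 16.04, 12.8 and 20.6 in MM1.S (log2FC 2.98 ± 0.16, edgeR adjusted p = 2.27e-10). The sterol sensor INSIG1 had 1458, 1584 and 1322 CPM in JJN3 and 480.3, 454 and 492 in MM1.S (log2FC 1.63 ± 0.12, edgeR adjusted p = 7.22e-09). The isomerase EBP was lower at 112, 104 and 119 CPM in JJN3 and 364, 355 and 370.1 in MM1.S (log2FC -1.68 ± 0.11, edgeR adjusted p = 2.69e-09).

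Growth programmes had called members in both directions. DNA replication genes were higher in JJN3 for 13 of 49 and lower for 8 (42.9% called). The count of members higher was 21 without JJN3 replicate 2 and 8 without JJN3 replicate 3. MCM3, of the replicative helicase, was higher at 784, 570.2 and 901 CPM in JJN3 and 363, 323 and 392 in MM1.S (log2FC 1.09 ± 0.15, edgeR adjusted p = 9.53e-06). Cyclin E2 (CCNE2) had 10.2, 9.33 and 8.67 CPM in JJN3 and 0.963, 1.42 and 0.951 in MM1.S (log2FC 3.10 ± 0.31, edgeR adjusted p = 2.91e-07). Mitosis genes were higher for 20 of 50 and lower for 8. The kinetochore protein NDC80 was among the higher (log2FC 1.34 ± 0.13, edgeR adjusted p = 2.53e-07). Ribosome biogenesis was even, with 20 higher and 21 lower of 66, and MYC targets had 14 and 8 of 38. DNA repair genes were higher for 17 and lower for 12 of 46. MGMT, which reverses alkylation of guanine, had 10.97, 4.93 and 6.43 CPM in JJN3 and 31.9, 38.5 and 31.2 in MM1.S (log2FC -2.17 ± 0.24, edgeR adjusted p = 9.96e-07). Of 33 epigenetic regulators 15 were higher in JJN3 and 5 lower. The histone demethylase KDM5B had 42.8, 41 and 33.3 CPM in JJN3 and 2.89, 4.27 and 3.17 in MM1.S (log2FC 3.54 ± 0.22, edgeR adjusted p = 8.09e-10). The demethylase KDM6B (log2FC 2.76 ± 0.27, edgeR adjusted p = 2.01e-07) and the methyltransferase KMT2D (log2FC 1.62 ± 0.13, edgeR adjusted p = 2.39e-08) were higher too.

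Genes of the integrated stress response varied inside MM1.S. Of 31 tested, 10 were higher in JJN3 and 3 lower (41.9% called). Without MM1.S replicate 2 the count of members higher was 15. The summed level of the list was 1315 to 2861 CPM over the MM1.S libraries and 2461 to 2861 over the JJN3 libraries. ATF4, the factor at the head of the response, had 212, 244 and 375 CPM in JJN3 and 259, 677 and 255 in MM1.S (log2FC -0.51 ± 0.51, edgeR adjusted p = 0.43). PSAT1, a serine synthesis gene it induces, had 37.6, 58.6 and 43.7 CPM in JJN3 and 71.2, 217 and 74.8 in MM1.S (log2FC -1.36 ± 0.57, edgeR adjusted p = 0.095). Both, chosen after their values were seen, were high in MM1.S replicate 2 and were not called. The secreted glycoprotein STC2 had 132, 193 and 134 CPM in JJN3 and 0.16, 1.22 and 0.317 in MM1.S (log2FC 8.17 ± 0.32, edgeR adjusted p = 9.51e-12). ATF3 was lower in JJN3, at 1.49, 2.99 and 1.64 CPM in JJN3 and 10.9, 25.4 and 10.8 in MM1.S (log2FC -2.90 ± 0.40, edgeR adjusted p = 2.06e-05).

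Markers of other cell types were checked to see what else the libraries held. Of 20 T and NK cell markers, 14 had 1 CPM or less in all 6 libraries, and CD3D, CD4, CD8A and LCK had 0 counts throughout. That list summed to 55.0 to 69.0 CPM in JJN3 and 13.2 to 17.1 in MM1.S. Within it CD8B, a chain of the T cell co-receptor, had 49.1, 46.8 and 36.9 CPM in JJN3 and 0, 0.204 and 0 in MM1.S (764-fold by summed counts, interval 137 to 30225, edgeR adjusted p = 2.46e-11). ZAP70, a T cell kinase, had 15.4, 15.5 and 13.2 CPM in JJN3 and 0, 0.204 and 0 in MM1.S (255-fold by summed counts, interval 45.3 to 10101, edgeR adjusted p = 2.14e-09). Of 18 myeloid markers 13 had 1 CPM or less throughout, with CD33, MPO and ITGAM at 0, and the list summed to 10.6 to 18.7 CPM in JJN3 and 45.1 to 51.3 in MM1.S. Of 16 stromal, endothelial and epithelial markers 12 were that low, with COL3A1, CDH5, VWF and KRT8 at 0. Their sums were 17.4 to 20.3 CPM in JJN3 and 57.8 to 65.5 in MM1.S. The erythroid list held HBB, beta globin, at 536, 404 and 632 CPM in JJN3 and 18.1, 18.7 and 16.01 in MM1.S (log2FC 4.91 ± 0.18, edgeR adjusted p = 1.98e-12). ALAS2 and GATA1 of the same list were at 0 in all 6. Globin genes are close copies, and how reads were split among them is not known. Of 20 B cell markers 10 had 1 CPM or less in all 6 libraries, CD22 and FCER2 with 0 counts in both lines. Of the 7 that passed the filter on low counts, 5 were higher in JJN3 and 2 lower (median log2 fold change 1.05, beside 0.02 over all genes tested). Some passed through 1 line alone and had to differ; asking for 10 counts in every library left 2 higher and 0 lower. The list summed to 181 to 204 CPM in JJN3 and 110 to 117 in MM1.S, while the plasma cell identity list was mostly lower in JJN3. The part of B cell markers in that result was not tested. CR2, the complement receptor of mature B cells, had 0 counts in all 3 JJN3 libraries and 24.1, 20.4 and 26.6 CPM in MM1.S, at least 142-fold lower in JJN3 (edgeR adjusted p = 7.18e-10). CD79B, a chain of the B cell receptor, was higher (log2FC 1.05 ± 0.14, edgeR adjusted p = 4.48e-06). Single lineage genes were thus detected in these lines. Markers with 0 counts in all 6 libraries were 6 of 20 for T and NK cells and 7 of 18 for myeloid cells. They were 6 of 16 for stromal, endothelial and epithelial cells and 3 of 20 for B cells. For erythroid cells and platelets they were 7 of 14. The markers named above at 0 were picked from these.

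Genes of the germ line and of development also differed. Of 35 cancer testis antigens 27 had 1 CPM or less in all 6 libraries. Of the 7 tested, 5 were higher in JJN3 and 2 lower, beside 33.4% and 32.9% over all genes tested. A member that passed the filter on low counts through 1 line alone, as MAGEA1 and DDX43 did, had to differ, and no direction is drawn for the list. MAGEA1 had 0, 0.176 and 0 CPM in JJN3 and 59.2, 42.1 and 65.3 in MM1.S (1004-fold by summed counts, interval 179.9 to 39714, edgeR adjusted p = 1.37e-11), a gene with near-identical relatives. The meiotic protein SYCP3 had 2.79, 2.11 and 2.69 CPM in JJN3 and 89.8, 73.9 and 78.8 in MM1.S (log2FC -4.97 ± 0.19, edgeR adjusted p = 4.16e-12). The helicase DDX43 had 16, 32.4 and 19.6 CPM in JJN3 and 0.321, 0 and 0.158 in MM1.S (131-fold by summed counts, interval 44.7 to 640.2, edgeR adjusted p = 4.14e-09). Of the HOX genes and their cofactors 28 of 35 were that low. Of the 5 tested, 4 were called, all lower in JJN3, beside 32.9% lower over all genes tested. A member that passed the filter on low counts through 1 line alone, as HOXB4 did, had to differ. HOXB4, a patterning factor, had 0, 0 and 0.15 CPM in JJN3 and 9.79, 10.2 and 10.6 in MM1.S (181-fold by summed counts, interval 32.1 to 7187, edgeR adjusted p = 7.37e-09).

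Some differences came as runs of neighbours. Of the genes tested, 10932 could be put in RefSeq gene order, used for order alone. Runs of 3 or more genes in a row, each called at least 4-fold in the same direction, numbered 51 and held 185 genes, 22 runs higher in JJN3 and 29 lower; 16.3% of all genes tested meet that size. The 3 longest held 8 genes each. One of them is the lambda light chain cluster from IGLV2-14 to RAB36. Its lambda constant genes are near-identical copies among which the split of counts is uncertain, so they do not count as separate differences. Inside the cluster GNAZ, a G protein alpha subunit, had 1.67, 1.76 and 1.64 CPM in JJN3 and 13.96, 16.5 and 17.1 in MM1.S (log2FC -3.19 ± 0.25, edgeR adjusted p = 1.81e-08). The small GTPase RAB36, at its end, had 0.372, 0.176 and 0.15 CPM in JJN3 and 68.2, 68.4 and 75.6 in MM1.S (log2FC -8.15 ± 0.27, edgeR adjusted p = 6.59e-13). Another is a stretch of zinc finger genes, ZFP14, ZFP82, ZNF566, ZNF260, ZNF529, ZNF529-AS1, ZNF382 and ZNF461, all higher in JJN3. ZFP14 was higher (log2FC 2.25 ± 0.23, edgeR adjusted p = 3.81e-07), and ZNF461 had 4.28, 5.10 and 4.79 CPM in JJN3 and 0 counts in all 3 MM1.S libraries, at least 27.5-fold higher. ZNF382, a repressor of the KRAB class, had 11.2, 14.6 and 13.8 CPM in JJN3 and 0.16, 0 and 0 in MM1.S (231-fold by summed counts, interval 41.1 to 9168, edgeR adjusted p = 2.69e-09). Zinc finger genes of this kind are similar in sequence, which limits the counts of single members. Of the 20 tested genes that flank it, 12 were higher in JJN3, 1 lower and 7 not called. A shorter run held SLFN11, SLFN12 and SLFN13, all lower in JJN3. Lowering the size to 2-fold and asking for 5 genes in a row gave 54 runs with 358 genes, the longest of 16 genes from SNX16 to OTUD6B-AS1, all higher in JJN3 at a median log2 fold change of 2.30. Of the 20 genes beside that run 17 were also higher (median 1.68). Copy number was not measured.

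**Figure D4:**
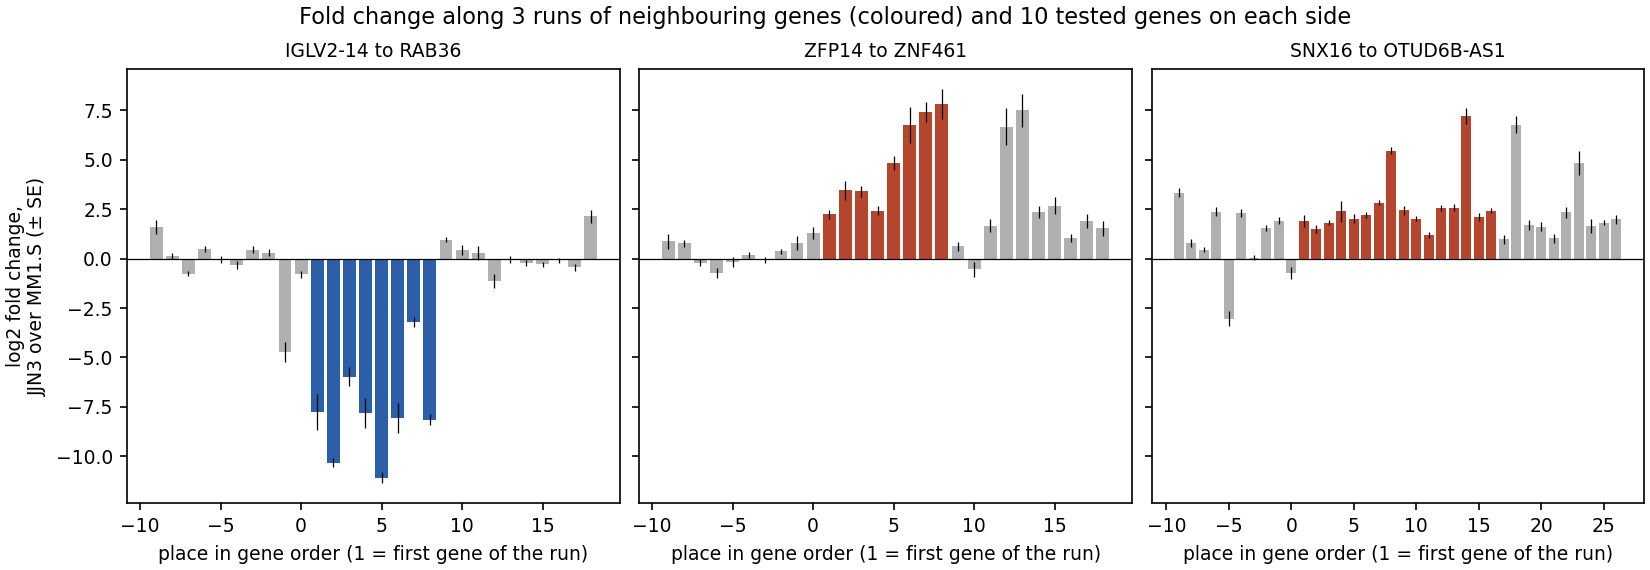
Log2 fold change of JJN3 over MM1.S with its standard error for the genes of 3 runs (red, higher; blue, lower) and for 10 tested genes on each side (grey), in gene order, with place 1 the first gene of the run; bars of genes at 0 counts in a line are fitted values that depend on the prior count. The median of the flanking genes is -0.05 for the lambda run, while 17 of 20 genes beside the run from SNX16 to OTUD6B-AS1 are higher too.

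The treated cells were used to see whether the difference between untreated lines held over all 12 libraries of each line, without a new test. Of the 2018 genes called and at least 2-fold higher in JJN3, 1119 had every JJN3 library above every MM1.S library. Of the 1958 lower, 1052 had every one below. Together this is 54.6%, against 25.5% of all genes tested. Leaving out the 12 libraries with panobinostat, 1823 and 1840 were separate (92.1%, against 54.9% of all genes tested). Of the on-off genes 77 of the 81 and 60 of the 63 were separate over all 12 libraries of each line, and 81 and 63 without panobinostat. CDKN2C ranged from 84.1 to 199 CPM over the 12 JJN3 libraries and had 0 counts in all 12 of MM1.S. UCHL1 ranged from 208 to 590 CPM in MM1.S and 0 to 0.321 in JJN3, and HGF from 516 to 1208 in JJN3 and 0 to 2.19 in MM1.S. Levels of some markers differed less between the lines under panobinostat. SDC1 in MM1.S averaged 1073 ± 26.7 CPM with vehicle and 91.1 ± 19.8 with panobinostat (SD, n = 3), beside 102 ± 10.4 and 60.5 ± 4.42 in JJN3, and its ranges over the 12 libraries overlapped. Within the panobinostat libraries SDC1 still ran higher in MM1.S, at 79.0 to 114 CPM, than in JJN3, at 57.0 to 65.4. With both drugs the lines were also separate. SLAMF7 in MM1.S averaged 1086 ± 54.3 and 77.6 ± 26.1 CPM (SD, n = 3), beside 4.19 ± 0.551 and 5.64 ± 0.157 in JJN3, and stayed separate. Since the genes were picked on the vehicle libraries, which are among the 12, these counts describe and do not test.

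**Figure D5:**
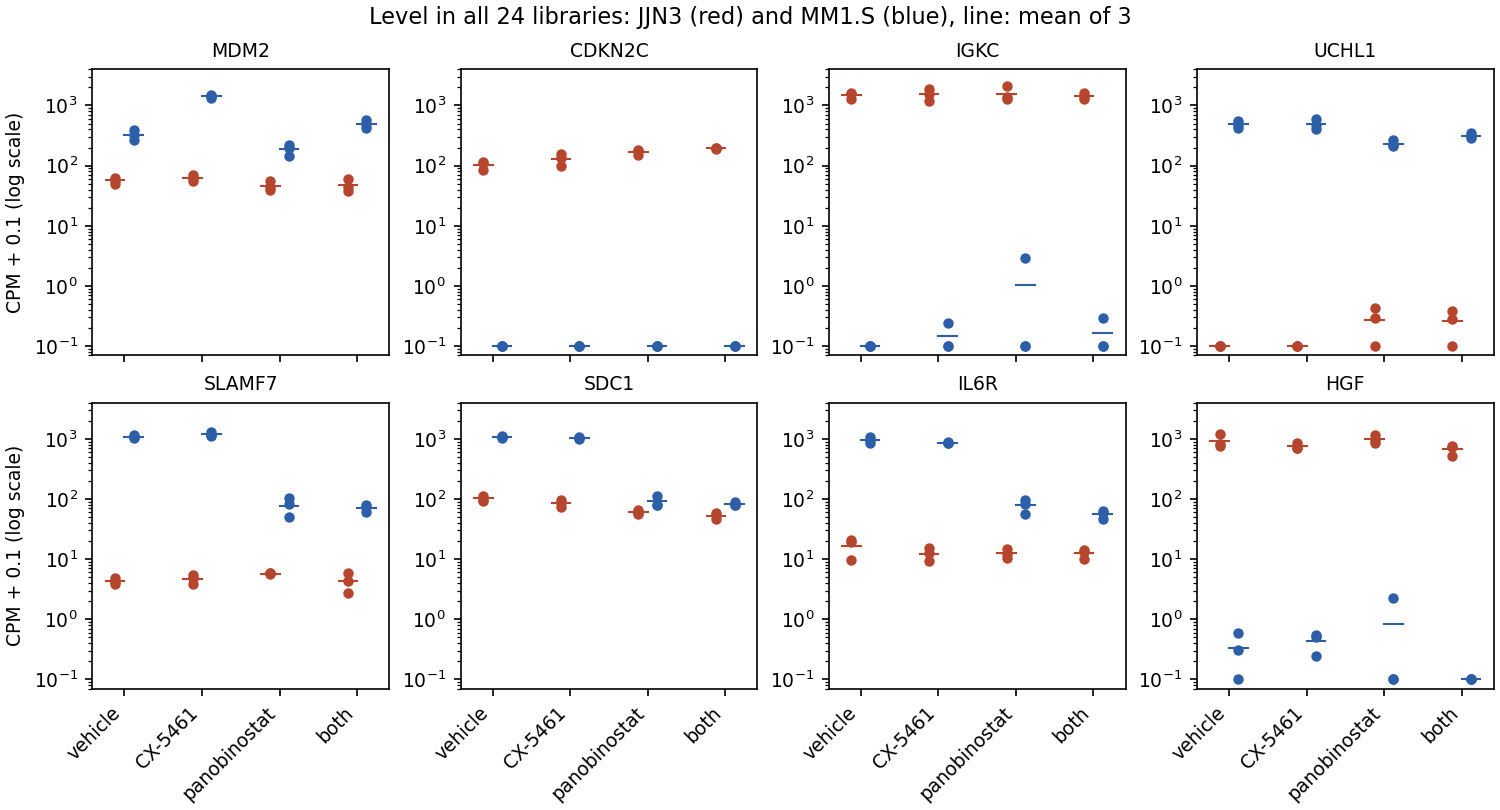
CPM + 0.1 on a log scale of 8 genes in all 24 libraries, by treatment, with JJN3 in red, MM1.S in blue and a line at the mean of 3; points at 0.1 have 0 counts. CDKN2C, IGKC, UCHL1 and HGF stay apart under every treatment. SDC1 of MM1.S comes near the JJN3 values where panobinostat was given but stays above the JJN3 libraries of the same treatment.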

How the data were processed

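Each of the 6 vehicle libraries was mapped to its line and replicate from its title. The values are raw counts, whole numbers of reads per gene, which the authors deposited as a separate table for each line. The submitters' processing notes name the builds hg19 and GRCh37 and the tools featureCounts 2.0.1, limma 3.50.0 and HISAT2 2.2.1. No source used here gives the annotation, the strand setting or the handling of reads with several matches, so a gene and an antisense partner cannot be told apart. The tables were joined on 28395 NCBI Gene identifiers. Symbols came from a GRCh38.p14 table for 27745 of them; the other 650 held at most 0.0363% of a vehicle library. edgeR 4.0.16 in R 4.3.3 (TMM, filterByExpr, robust quasi-likelihood F test) tested 10981 genes at 4 residual degrees of freedom. Alternatives were limma 3.58.1 and DESeq2 1.42.0. On simulated counts of 10428 genes it recovered 95% of 2-fold and 100% of 4-fold changes (100 genes each), with 8 false calls. Those counts used the MM1.S means and a common dispersion for both lines, and only well-counted genes were changed. Recovery for genes with few counts, or at the wider spread of JJN3, was not tested. Depth was 4912481 to 6687473 counts per library, and 0 counts in the shallowest allow up to 0.611 CPM. Replicate counts differed by more than sampling noise in each line, which does not show that they came from separate cultures. Each library was taken as 1 replicate. The lines, the 46 gene lists, the panel of 55 genes and the rules were chosen with earlier results of these data known. Genes named are the 10 largest called differences in each direction with average log2 CPM of at least 5 and no overlap (genes without a symbol, pseudogenes and LOC symbols left out), up to 3 called members per list and direction by smallest adjusted p, the panel, the 3 longest runs and the 5 highest on-off genes per direction; not every such gene is printed, and some are not reported here. Promoter sequences are RefSeq's for GRCh38.p14, matched by gene identifier.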

Additional observations from a re-analysis of the deposited data

How the results depend on the processing

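The counts of genes called stayed within 1.5 times under 15 other settings, and no gene called in both fits changed sign in any of them. DESeq2 called 7427, limma-voom 7221, library size alone 7210, upper quartile scaling 7264, the fit without the 10 most abundant genes 7260, the fit of all 24 libraries 8199 and the fit with no filter on low counts 8627. Leaving out 1 library gave 6691 to 7611 calls, 7611 without JJN3 replicate 2. Asking for 10 counts in every library left 8950 genes, removed 1698 of the calls by construction and gave 5565, of which 2317 differed at least 2-fold against 3976. The other scalings moved the median log2 fold change of all genes by less than 0.06. The replicate numbers did not pair the libraries (correlations of same-numbered deviations 0.097, -0.0488 and -0.0006), and a replicate block in the edgeR design gave 7203 called genes, 7103 of them called in both fits. At 10 CPM in place of 20 the on-off genes numbered 153 in JJN3 and 125 in MM1.S; asking for 0 counts in the other line they numbered 30 and 16. Without panobinostat libraries 3663 genes in place of 2171 stayed separate between the lines. Of 3937 values for 269 named genes, 59 lost their call (13 genes) and 4 gained one. The median changed sign under at least 1 setting for the lists of immunoglobulin, MAPK feedback, MHC class I, cancer testis, metallothionein, myeloid, myeloma oncogene, non-canonical NF-kB, anti-apoptotic, immediate early, DNA replication and ribosome biogenesis genes, and no direction was drawn from them. Depth limits genes under about 1 CPM.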

Other observations

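A few more genes on in 1 line alone were chosen after their values were seen and stand for no class of genes. CD81, a tetraspanin, had 268, 232 and 287 CPM in JJN3 and 0.321, 0.204 and 0 in MM1.S. DLL3, a Notch ligand, had 93.6, 101 and 77.3 CPM in JJN3 and 0 counts in all 3 MM1.S libraries. BMP7, a bone morphogenetic protein, had 92.4, 58.6 and 79.1 CPM in JJN3 and 0, 0.204 and 0 in MM1.S. The Notch ligand JAG2 had 42.8, 47.2 and 54.7 CPM in JJN3 and 0.481, 0.204 and 0.158 in MM1.S. On in MM1.S were the developmental factor SOX2, with 0, 0 and 0.15 CPM in JJN3 and 39.6, 49.1 and 49.6 in MM1.S, and the chemokine receptor CXCR3, with 0, 0.176 and 0 CPM in JJN3 and 44.9, 38.1 and 46.8 in MM1.S. HES1, a Notch target, had 0.186, 0 and 0 CPM in JJN3 and 26.6, 23.6 and 32.97 in MM1.S. Both Notch ligands named were on in JJN3, and HES1 was on in MM1.S. HEY1, a relative of HES1, was called higher in JJN3 (log2FC 3.33 ± 0.24). No direction of Notch signalling is read from these genes.

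Some genes on the higher side in JJN3 varied within that line. TCL1A, a coactivator of AKT, had 63.98, 20.8 and 43.5 CPM in JJN3 and 0 counts in all 3 MM1.S libraries. CD70, the ligand of CD27, had 755, 284 and 881 CPM in JJN3 and 158, 192 and 221 in MM1.S. Both were lowest in JJN3 replicate 2. VEGFA, the vascular growth factor, was highest there, at 162, 245 and 79.6 CPM in JJN3 and 19.1, 27.5 and 20.4 in MM1.S. All 3 were nevertheless higher in each JJN3 library than in any of MM1.S.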
